A study of Mus musculus with 16 samples.

Results

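Primary murine gingival fibroblasts (mGF) given palmitate and IL-1β together were compared with mGF given only the albumin carrier. The 4 libraries titled palmitate+IL-1β (replicates 13 to 16) and the 4 titled BSA (replicates 1 to 4) were chosen by their titles, which makes 8 of the 16 libraries of the series, and all genes of the table entered the comparison. The other 8 libraries hold the single agents and were used only where stated. The cells were wild type, grown out of gum tissue around the maxillary second molar of C57Bl6 mice aged 3 to 6 months, and used between passages 2 and 8. BSA cells received the BSA control for fatty acid complexes as vehicle at 200 µM, and palmitate+IL-1β cells received the BSA-palmitate complex at 200 µM with 1 ng/mL mouse recombinant IL-1β. RNA was taken after 24 h and sequenced in bulk. No source used here says whether the 4 libraries of a group came from separate cultures or animals, so p-values measure only the spread between these libraries, which may be technical.

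Palmitate is the main saturated fatty acid of blood and diet. Cells take it up bound to albumin, burn it in mitochondria after transfer to carnitine, or build it into membranes and fat droplets, and fatty acids also act as ligands of the PPAR transcription factors. IL-1β is a cytokine that binds its receptor on fibroblasts and, through MYD88 and IRAK kinases, frees NF-kB to enter the nucleus and switch on chemokines, adhesion molecules and matrix-degrading enzymes. In inflamed gum, fibroblasts are known as a source of the chemokines that draw neutrophils and monocytes into the tissue.

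The 8 libraries held from 25695360 to 35329711 gene counts each. Differences were tested with edgeR's quasi-likelihood test, with p-values adjusted by the Benjamini-Hochberg method over all genes tested. On the first principal component of the 500 most variable genes, which held 92.98% of their variance, the BSA libraries lay between -31.96 and -30.53 and the palmitate+IL-1β libraries between 29.08 and 34.04. All 10 fibroblast markers checked were measured, with a summed level of 31900 to 33800 CPM (counts scaled to the size of the library) in BSA and 28600 to 30600 CPM in palmitate+IL-1β. Of these markers 1 was called higher and 7 lower. None of 8 epithelial markers passed the filter on low counts, and their sum stayed under 0.837 CPM, with Krt8 at 0 in all 8 libraries. The 9 leukocyte markers summed to 2.12 to 3.26 CPM in BSA and to 2.74 to 3.29 CPM in palmitate+IL-1β, with Tyrobp and Cd3e at 0. The 5 osteoblast and cementoblast markers summed to 1340 to 1420 CPM in BSA and to 1230 to 1350 CPM in palmitate+IL-1β. Of these, 3 stayed under 1 CPM in all 8 libraries, so the sum came almost wholly from the 2 tested, Spp1 and Dmp1, which had no call. Schwann and glial markers summed to at most 3.15 CPM and melanocyte markers to at most 0.718 CPM in any of the 8 libraries. Pericyte and smooth muscle markers summed to 179 to 200 CPM in BSA and to 147 to 167 CPM in palmitate+IL-1β, with 2 of 4 tested called lower. Skeletal muscle markers summed to 24.1 to 25.7 CPM and to 15.4 to 17 CPM, with 1 of 2 tested called lower, and the 1 adipocyte marker tested was lower too. The part of such cells in the results was not tested. The mitochondrial genome supplied 12.22% to 13.44% of gene counts in BSA against 10.71% to 11.48% in palmitate+IL-1β. Ribosomal RNA genes, the mitochondrial ones included, supplied 11.34% to 12.33% in BSA against 9.848% to 10.5% in palmitate+IL-1β. Without mitochondrial and ribosomal RNA genes, 7280 genes were called, 3577 higher and 3703 lower, and 7121 of them were also among the 7302 calls given below. In bulk RNA, fewer cells of a type and less RNA per cell cannot be told apart.

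Of 15798 genes with enough counts to test, out of 56941 in the table, 7302 differed between the groups at an adjusted p under 0.05, which is 46.2% of the genes tested. Among them 3754 (23.8%) were higher in palmitate+IL-1β and 3548 (22.5%) were lower. The split was thus near even, with 51.41% of calls higher, but it depended on the scaling, since upper-quartile scaling put 38.09% of its calls higher. Many differences were small. The fitted change was over 2-fold for 1144 genes (7.24%), of which 672 (4.25%) were higher and 472 (2.99%) lower. At the far end the directions were unequal, with 80 genes over 16-fold higher and 1, B3galt2, over 16-fold lower. B3galt2 was near 0 with both agents, and its log2 fold change of -4.37 moved to -3.94 without palmitate+IL-1β replicate 13, which is under 16-fold, and to -5.3 without replicate 14. The CPM of the groups did not overlap for 6701 genes (42.4%). The median log2 fold change over all genes tested was -0.01, and this is the background against which each gene list below is read. Lists are described by how many of their tested members rose, fell or missed the threshold. A gene low in one group could enter the test through the other group alone, so these counts describe the members that were tested and not all members listed. Members named because they went against the rest of their list or missed the threshold were picked after their values had been seen.

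**Figure D1:**
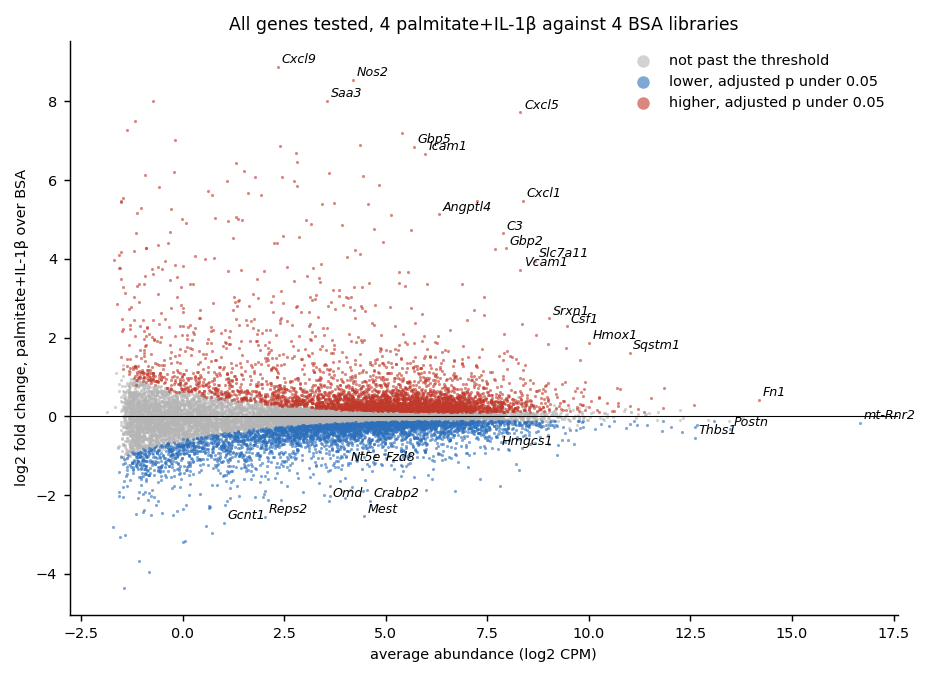
Each point is one of the 15798 genes tested, with its average abundance (log2 CPM) on the horizontal axis and its log2 fold change, palmitate+IL-1β over BSA, on the vertical axis; red genes were called higher, blue genes lower and grey genes missed the threshold. Rises reach further than falls, up to 8.88 for Cxcl9, while abundant genes such as mt-Rnr2 and Postn moved by less than 0.5.

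Chemokine ligands held many of the largest rises. Of 32 listed, 22 were tested, 19 rose, 1 fell and 2 missed the threshold, with a median log2 fold change of 3.84, or 3.40 with the gene at 0 in BSA taken at its lower bound. Several of these genes carry an NF-kB-type motif just upstream of their start. The letters GGNNTTTCC, read on both strands, were found in the 250 bases before the start in 10 of the 22 chemokine promoters (45.5%) and in 820 of 15727 promoters of tested genes (5.21%). The last 130 bases before the start of the canonical transcript are shown for the neutrophil chemokines Cxcl5 (chr5:90907107-90907236, plus strand), Cxcl1 (chr5:91038964-91039093, plus) and Cxcl2 (chr5:91051600-91051729, plus), and for Ccl5 (chr11:83421346-83421475, minus), because the motif lies close to the start in each. Sequences are from GRCm39 with GENCODE vM39 and run 5′ to 3′ on the gene's strand, and capitals mark the motif on either strand:
Cxcl5: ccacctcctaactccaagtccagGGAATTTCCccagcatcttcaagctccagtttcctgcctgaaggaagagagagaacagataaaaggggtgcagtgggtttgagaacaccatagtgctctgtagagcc
Cxcl1: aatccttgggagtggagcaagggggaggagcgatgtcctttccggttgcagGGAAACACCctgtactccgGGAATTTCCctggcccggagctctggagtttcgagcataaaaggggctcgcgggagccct
Cxcl2: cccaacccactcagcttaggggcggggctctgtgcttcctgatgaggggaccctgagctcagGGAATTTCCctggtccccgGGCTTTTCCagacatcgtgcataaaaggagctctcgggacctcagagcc
Ccl5: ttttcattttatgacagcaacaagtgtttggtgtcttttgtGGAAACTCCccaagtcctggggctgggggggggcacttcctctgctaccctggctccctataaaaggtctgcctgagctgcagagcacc
In these windows the motif began 107 bases before the start of Cxcl5, 79 and 60 bases before that of Cxcl1, 68 and 49 bases before that of Cxcl2, and 89 bases before that of Ccl5. A match in letters does not show that a factor bound there.

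Cxcl5 (ENSMUSG00000029371.8), which attracts neutrophils through CXCR2, had the smallest p of all genes. Its level was 2.84, 3.03, 3.27 and 2.90 CPM in the BSA libraries and 670, 639, 570 and 649 CPM in the palmitate+IL-1β libraries. The groups did not come near each other, and the log2 fold change was 7.72 (SE 0.08, adjusted p = 8.28e-25). Cxcl1, a second CXCR2 ligand, rose from 14.4 ± 1.12 to 644 ± 34.8 CPM (SD, n = 4), a log2 fold change of 5.48 (SE 0.07, adjusted p = 2.32e-23). Cxcl2, the third of this family shown above, was almost silent in BSA at 0.115 to 0.177 CPM and stood at 11.5 to 16.4 CPM with both agents, a log2 fold change of 6.45 (SE 0.20, adjusted p = 1.44e-16). For monocytes, Ccl2 was 20.4, 19.6, 16.0 and 25.5 CPM in BSA and 378, 375, 407 and 395 CPM in palmitate+IL-1β, and Ccl7 rose from 20.9 ± 1.57 to 213 ± 8.29 CPM (SD, n = 4). Their log2 fold changes were 4.25 (SE 0.12, adjusted p = 7.91e-10) and 3.35 (SE 0.06, adjusted p = 6.27e-21). The membrane-anchored chemokines Cx3cl1 and Cxcl16 rose too, with log2 fold changes of 3.03 (SE 0.05, adjusted p = 1.46e-20) and 4.42 (SE 0.08, adjusted p = 3.51e-20). The T-cell chemokine Ccl5 went from 0.131 to 0.538 CPM in BSA to between 36.3 and 44.5 CPM.

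Cxcl9, a ligand of CXCR3 known as an interferon-γ target, had 2 counts over the 4 BSA libraries and 1206 over the 4 palmitate+IL-1β libraries. The ratio of levels was 579, with an exact 95% interval of 160 to 4790 that covers counting error only. Ccl28, a chemokine of mucosal surfaces, was the 1 member to fall, from 6.83 ± 0.313 to 5.44 ± 0.451 CPM (SD, n = 4, adjusted p = 0.0093). Ccl25 and Ccl27a missed the threshold at adjusted p = 0.152 and 0.178, and 92.6% of the Ccl27a transcript is shared with another gene, so its counts are uncertain.

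Cytokines and adhesion molecules moved the same way as the chemokines but more unevenly. Of 25 interleukins and colony-stimulating factors listed, 15 were tested, 9 rose and 2 fell, with a median of 0.57. Csf1, the growth factor of macrophages, was 243, 243, 236 and 241 CPM in BSA and 1148, 1189, 1220 and 1139 CPM with both agents. Lif rose from 3.52 ± 0.371 to 28.7 ± 2.13 CPM (SD, n = 4), and Il6 from 0.443 ± 0.0712 to 9.38 ± 0.982 CPM, so that no library of one group reached the other. The receptor antagonist Il1rn, which blocks IL-1 at its receptor, was 2.06, 2.32, 2.31 and 1.98 CPM in BSA and 5.93, 6.87, 5.97 and 5.41 CPM with both agents (log2 fold change 1.48, SE 0.13, adjusted p = 3.43e-09). Il33, an alarmin, and Ctf1 fell by 0.89 and 0.87 on the log2 scale (adjusted p = 3.43e-04 and 0.0132). Il1b itself did not pass the filter on low counts, with at most 0.0326 CPM in any library, and Ifnb1 had no counts in the 8 libraries.

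Among 13 tested adhesion molecules of 14 listed, 9 rose and 1 fell, with a median of 0.73. Icam1, the endothelial and fibroblast ligand of leukocyte integrins, was 1.37, 0.979, 0.730 and 1.73 CPM in BSA and 130, 125, 126 and 112 CPM in palmitate+IL-1β (log2 fold change 6.66, SE 0.12, adjusted p = 4.08e-15). Vcam1, which binds the integrin α4β1, rose from 44.8 ± 3.73 to 590 ± 19.3 CPM (SD, n = 4, adjusted p = 2.77e-21). The hyaluronan receptor Cd44 and the "do not eat me" signal Cd47 rose by smaller factors, with log2 fold changes of 1.75 (SE 0.05) and 0.73 (SE 0.05). Sele, the selectin E of activated endothelium, had 0 counts in every BSA library and 18 to 30 counts in each palmitate+IL-1β library, which is at least 7.3-fold higher against a floor of 3 counts per library. Of 6 endothelial markers 3 were tested and none was called, and their sum was 1.80 to 2.31 CPM in BSA and 1.56 to 1.70 CPM in palmitate+IL-1β. The junction molecule Jam2 was the member that fell, by 0.22 on the log2 scale (adjusted p = 0.039), and its libraries overlapped between the groups.

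The NF-kB system, subunits and brakes alike, rose nearly as a whole. All 28 listed members were tested and 26 of them rose, none fell and 2 missed the threshold, with a median of 1.08. The kB motif above was present in 4 of their 28 promoters (14.3%). The 4 with the smallest p were Nfkbia, Zc3h12a, Nfkbiz and Tnfaip3, and all but Nfkbiz are known as brakes on the pathway or its messages. Nfkbia, which holds NF-kB in the cytoplasm, was 17.8, 15.7, 16.6 and 17.6 CPM in BSA and 86.6, 90.0, 86.3 and 89.1 CPM with both agents (log2 fold change 2.38, SE 0.05, adjusted p = 7.3e-19). Zc3h12a, a ribonuclease that destroys cytokine mRNAs, rose from 6.54 ± 0.451 to 46.4 ± 2.79 CPM (SD, n = 4), Nfkbiz from 16.6 ± 1.57 to 101 ± 6.24 CPM, and the ubiquitin editor Tnfaip3 from 8.16 ± 0.517 to 42.2 ± 1.68 CPM. Otulin and Tnip2 were the members without a call, at log2 fold changes of 0.15 and 0.19 (adjusted p = 0.0701 and 0.171). Gm16685, a long non-coding RNA gene with one of the smallest p-values of all, was 1.14, 1.17, 1.08 and 0.989 CPM in BSA and 43.4, 46.4, 44.8 and 49.7 CPM in palmitate+IL-1β.

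Upstream of NF-kB, 24 of 31 listed genes of Toll-like and IL-1 receptor signalling were tested, and 15 rose and 3 fell (median 0.44). Lbp, which delivers bacterial lipopolysaccharide to its receptor complex, was 6.81, 7.24, 7.07 and 6.92 CPM in BSA and 78, 75.4, 71.3 and 67.2 CPM with both agents. The lipoprotein receptor Tlr2 rose from 12.8 ± 0.62 to 85.5 ± 9.04 CPM (SD, n = 4, adjusted p = 1.89e-16). Il1rl1, the receptor and decoy of IL-33, rose from 473 ± 28.9 to 1279 ± 31.9 CPM (adjusted p = 1.4e-15), and the kinase Map3k8 rose by 1.91 (SE 0.11) on the log2 scale. The flagellin receptor Tlr5 fell by 0.78 on the log2 scale, and Tlr6 and Irak2 fell by 0.63 and 0.18. The Irak2 value is uncertain because 32.1% of its transcript is shared with another gene.

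Of 57 interferon-stimulated genes listed, 51 were tested, 49 rose and none fell. Their median log2 fold change was 3.66, and 45 of them rose over 2-fold. The interferon response element, searched as TTCNNTTTC on both strands, was found within 250 bases before the start in 25 of their 51 promoters (49%) and in 1119 of 15727 promoters of tested genes (7.12%). The letters of this motif and the kB motif can overlap. The 130 bases before the start are shown for the guanylate-binding protein gene Gbp5 (chr3:142202404-142202533, plus), the nucleic acid sensor Zbp1 (chr2:173060725-173060854, minus), the GTPase gene Tgtp2 (chr11:48955032-48955161, minus) and Ifit1 (chr19:34618141-34618270, plus), since they include some of the largest rises. Capitals mark the interferon element on either strand:
Gbp5: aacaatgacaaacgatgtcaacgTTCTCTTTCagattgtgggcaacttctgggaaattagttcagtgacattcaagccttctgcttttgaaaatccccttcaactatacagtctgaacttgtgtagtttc
Zbp1: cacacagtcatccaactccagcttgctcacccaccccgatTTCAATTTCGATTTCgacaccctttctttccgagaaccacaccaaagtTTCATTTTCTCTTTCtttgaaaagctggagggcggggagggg
Tgtp2: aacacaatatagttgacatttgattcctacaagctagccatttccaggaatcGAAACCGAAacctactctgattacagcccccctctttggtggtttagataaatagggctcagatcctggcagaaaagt
Ifit1: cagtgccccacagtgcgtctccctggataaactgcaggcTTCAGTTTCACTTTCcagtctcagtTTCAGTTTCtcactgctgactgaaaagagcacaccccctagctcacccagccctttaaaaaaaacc
The element began 107 bases before the start of Gbp5 and 78 bases before that of Tgtp2. It occurred at 90, 84, 42 and 36 bases before the start of Zbp1 and at 91, 85 and 66 bases before that of Ifit1, where neighbouring copies overlap.

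Gbp2, a GTPase that acts against intracellular microbes, was 24.8, 23.3, 23.6 and 26.0 CPM in BSA and 466, 476, 430 and 514 CPM with both agents (log2 fold change 4.27, SE 0.06, adjusted p = 5.69e-22). Gbp5, of the same family, rose from 0.888 ± 0.21 to 102 ± 12.0 CPM (SD, n = 4), and Gbp9 from 0.943 ± 0.0894 to 55.5 ± 7.42 CPM. Gbp6 rose by 6.19 (SE 0.16) on the log2 scale, but 95.3% of its transcript is shared with other genes, chiefly Gm43302, so the gene behind the counts is uncertain. Zbp1 went from at most 0.196 CPM to between 7.78 and 13.4 CPM.

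Some interferon-stimulated genes varied widely among the palmitate+IL-1β libraries. Ifit1, which binds viral RNA and was named after its values were seen, was 242, 298, 210 and 433 CPM with both agents against 5.27 to 7.84 CPM in BSA, highest in replicate 16. Tgtp2 was 10.2, 14.7, 10.4 and 19.3 CPM in the same libraries, again highest in replicate 16, and its transcript is wholly shared with Tgtp1. Irf3 and Isg20 were the members without a call, at log2 fold changes of 0.00 and 0.17 (adjusted p = 0.978 and 0.189).

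Genes that load peptides on MHC class I, which shows a cell's contents to T cells, rose without exception among those tested. All 18 tested of 20 listed were called higher, with a median of 1.37. The heavy chain gene H2-K1 was 21.3, 17.9, 17.5 and 19.6 CPM in BSA and 55.9, 54.7, 58.4 and 59.2 CPM with both agents. The peptide trimmer Erap1 rose from 27.0 ± 1.31 to 68.8 ± 1.24 CPM (SD, n = 4), the loading factor Tapbp from 87.1 ± 4.79 to 212 ± 8.61 CPM, and the immunoproteasome subunit Psmb10 from 3.80 ± 0.481 to 17.9 ± 1.07 CPM. The light chain gene B2m had the smallest rise of the list, 0.28 (SE 0.06) on the log2 scale.

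Complement and acute-phase genes gave 14 rises and 1 fall among 20 tested of 36 listed, with a median of 0.87. The central complement component C3 was 18.0, 17.5, 17.1 and 20.3 CPM in BSA and 465, 460, 436 and 462 CPM with both agents (log2 fold change 4.64, SE 0.06, adjusted p = 4.83e-23). Saa3, the serum amyloid made outside the liver, stood at 0.0326 to 0.177 CPM in BSA and at 21.4 to 25.1 CPM in palmitate+IL-1β. The pattern-recognition protein Ptx3 rose from 56.3 ± 2.76 to 150 ± 5.21 CPM (SD, n = 4, adjusted p = 9.14e-16).

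Of 23 tested genes for nitric oxide, arginine and prostaglandins, 12 rose and 5 fell (median 0.21). Nos2, the inducible nitric oxide synthase, was 0.120 and 0.228 CPM in 2 BSA libraries, 0 in the other two, and 37.0, 36.6, 36.5 and 35.0 CPM with both agents (log2 fold change 8.55, SE 0.20, adjusted p = 1.08e-15). With so few counts in BSA this fold is loose, and it was 9.52 on the log2 scale without BSA replicate 2. Slc7a2, which imports arginine, rose from 8.71 ± 0.191 to 60.0 ± 3.84 CPM (SD, n = 4). The inducible cyclooxygenase Ptgs2 was 111, 120, 136 and 121 CPM in BSA and 371, 410, 378 and 382 CPM with both agents, and the terminal prostaglandin E synthase Ptges rose from 20.9 ± 0.759 to 50 ± 4.11 CPM. Members that fell included the constitutive cyclooxygenase Ptgs1, by 0.23 on the log2 scale, the prostacyclin synthase Ptgis, by 0.30, the receptors Ptger1 and Ptgfr, by 0.55 and 0.26, and Ddah2, by 0.87.

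Receptors and signal carriers of the gp130 and interferon families followed, with 21 rises and 5 falls among 27 tested and a median of 0.66. The oncostatin M receptor Osmr was 29.7, 32.1, 33.6 and 31.1 CPM in BSA and 120, 125, 110 and 110 CPM with both agents, and the feedback inhibitor Socs3 rose from 4.76 ± 0.453 to 16.4 ± 1.27 CPM (SD, n = 4, adjusted p = 5.95e-13). Jak2 and Il13ra1 rose by 1.05 (SE 0.05) and 1.10 (SE 0.06) on the log2 scale. Socs5 fell by 0.67 and Pias1 by 0.21, and the falls of Il11ra1, Socs2 and Il10rb are uncertain because 80.1%, 23.3% and 44.7% of their transcripts are shared. Among 23 tested members of the TNF superfamily, 13 rose and 1 fell, with a median of 0.51. The death receptor Fas rose from 17.6 ± 1.6 to 61.9 ± 1.23 CPM, Cd40 from 0.0927 ± 0.0418 to 6.57 ± 0.604 CPM and the TNF receptor Tnfrsf1b from 26.9 ± 0.842 to 55.9 ± 3.62 CPM (SD, n = 4 each). Tnfrsf11b, osteoprotegerin, which restrains bone resorption, fell by 0.55 on the log2 scale (adjusted p = 3.73e-08). Of 38 tested cell death genes, 20 rose and 10 fell (median 0.19), and Bmf was lowest at a log2 fold change of -1.03. The rises included Ripk2, from 39.1 ± 2.23 to 214 ± 6.97 CPM, and the non-canonical inflammasome caspase Casp4, from 4.45 ± 0.377 to 30.3 ± 2.14 CPM. The pro-apoptotic Bid rose by 1.53 (SE 0.05) on the log2 scale, and the caspase-8 inhibitor Cflar by 1.02 (SE 0.05).

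**Figure D2:**
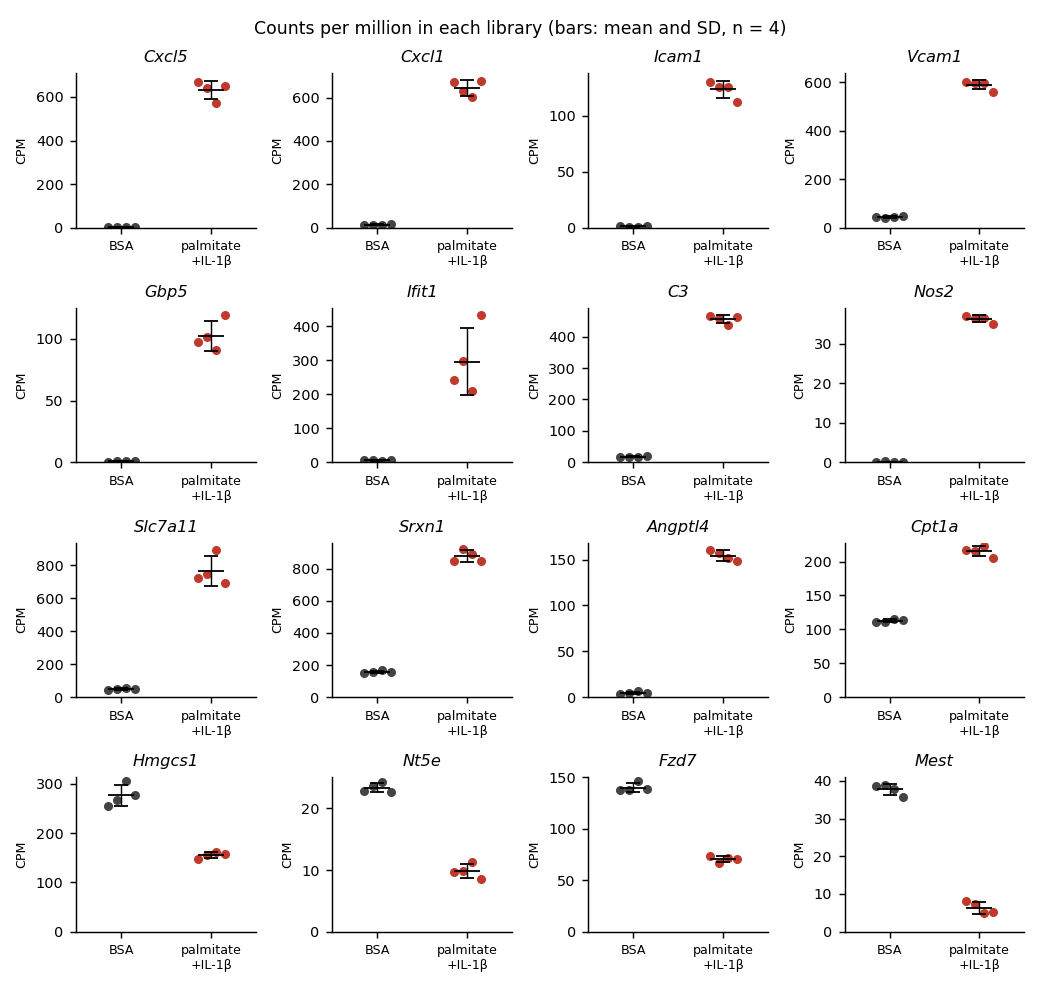
Each panel shows one gene in CPM (vertical axis, from 0), with a point for each of the 4 BSA (grey) and 4 palmitate+IL-1β (red) libraries and bars for the mean and SD. No panel has overlapping groups, and Ifit1 shows the widest spread within the palmitate+IL-1β group, from 210 to 433 CPM.

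Genes of fatty acid use did not move together. Of 51 tested PPAR targets and fatty acid oxidation genes out of 57 listed, 14 rose, 15 fell and 22 missed the threshold, with a median of 0.00. Over all genes tested, 23.8% were higher and 22.5% lower. The members that rose included known PPAR targets at the entry to mitochondrial oxidation. Pdk4, which keeps pyruvate out of the citric acid cycle, was 34.8, 30.9, 34.6 and 32.2 CPM in BSA and 124, 127, 116 and 117 CPM with both agents (log2 fold change 1.87, SE 0.05, adjusted p = 3.37e-17). The carnitine transferase Cpt1a was 111, 111, 115 and 114 CPM in BSA and 217, 215, 223 and 205 CPM with both agents, a log2 fold change of 0.93 (SE 0.04). Angptl4, an inhibitor of lipoprotein lipase that was named after its values were seen, rose from 4.49 ± 1.35 to 154 ± 5.66 CPM (SD, n = 4), the largest rise of the list at 5.13 (SE 0.14). The fatty acid receptor Ppard rose by 1.19 (SE 0.05), and the droplet coat gene Plin2 rose by 0.42 (SE 0.04). Against these, the droplet coat gene Plin4 fell from 62.2 ± 1.76 to 23.8 ± 1.07 CPM, and Pparg, the adipogenic receptor, fell from 19.8 ± 0.238 to 9.49 ± 1.14 CPM.

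Genes that make fatty acids and sterols were lower more often than higher. In fatty acid synthesis, desaturation and elongation, 4 rose and 11 fell among 21 tested of 25 listed, with a median of -0.19. The elongase Elovl6, which acts on palmitate itself, was 49.2, 55.8, 64.7 and 57.9 CPM in BSA and 32.9, 34.9, 32.6 and 33.6 CPM with both agents (adjusted p = 1.26e-08). The desaturases Scd1, Fads2 and Fads1 fell by 0.50, 0.45 and 0.40 on the log2 scale (SE 0.05 each). Fasn, the fatty acid synthase, had no call at 148.6 against 152.5 CPM (adjusted p = 0.683), and the 4 members that rose, Elovl7, Me1, Hsd17b12 and Srebf1, changed by 0.17 to 0.67 on the log2 scale, with 41.2% of the Me1 transcript shared. Among 34 tested cholesterol genes of 35 listed, 5 rose and 20 fell, with a median of -0.41. Hmgcs1, the first committed step of the mevalonate pathway, was 255, 268, 305 and 277 CPM in BSA and 147, 156, 161 and 158 CPM with both agents (log2 fold change -0.83, SE 0.05, adjusted p = 3.5e-11). Mvk, the next kinase of the pathway, fell from 19.8 ± 2.37 to 9.76 ± 0.473 CPM (SD, n = 4), and Dhcr7, the last reductase, from 18.0 ± 0.708 to 10.2 ± 0.556 CPM. Idi1 fell by 0.80 on the log2 scale, with 26.4% of its transcript shared. The members that rose were Insig2, Ggps1, Abca1, Insig1 and Npc1, by 0.19 to 0.40 on the log2 scale. The sterol element searched as TCACNCCAC on both strands was present in 1 of 34 promoters of this list (2.94%) and in 160 of all 15727 (1.02%).

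The stress programmes differed from each other. Among 35 tested ER chaperones, degradation factors and stress sensors, 7 rose, 8 fell and 20 missed the threshold, with a median of 0.03. These counts lie near the shares over all genes tested, 23.8% higher and 22.5% lower. The 8 falls became 4 with DESeq2 and 3 without BSA replicate 2, without palmitate+IL-1β replicate 13 or without replicate 16, and the 7 rises became 4 with upper-quartile scaling. The oxidase Ero1a rose from 86.7 ± 6.52 to 152 ± 5.78 CPM (SD, n = 4, adjusted p = 4.42e-11), and the sensors Ern1 and Atf6 rose by 0.69 (SE 0.06) and 0.46 (SE 0.05) on the log2 scale. Eif2ak3, which encodes the sensor PERK, was 48.3, 45.4, 44.8 and 48.1 CPM in BSA and 53.2, 49.8, 50.6 and 49.0 CPM with both agents. Its groups did not overlap, but the log2 fold change of 0.12 (SE 0.05) missed the threshold (adjusted p = 0.0589). Hspa5, the main ER chaperone, rose by 0.13 on the log2 scale (adjusted p = 0.0277), and Derl1, which extracts misfolded proteins, fell by 0.37 (adjusted p = 9.5e-06). Of 44 tested ATF4 programme and amino acid supply genes, 23 rose and 4 fell, with a median of 0.15. Atf4 itself was 297, 303, 292 and 308 CPM in BSA and 313, 316, 347 and 347 CPM with both agents, a log2 fold change of 0.14 (SE 0.05, adjusted p = 0.0207). This call was lost without palmitate+IL-1β replicate 15 (adjusted p = 0.0564) and with upper-quartile scaling (adjusted p = 0.262). Atf3 rose from 5.23 ± 0.567 to 20.0 ± 1.18 CPM, Cebpb from 41.8 ± 0.632 to 135 ± 7.13 CPM, and the glycine transporter Slc6a9 from 25.3 ± 1.74 to 49.7 ± 1.77 CPM. The death-linked targets Ddit3 (CHOP) and Chac1 had no call, at log2 fold changes of 0.01 and 0.03 (adjusted p = 0.916 and 0.742). Eif2a had no call either (adjusted p = 0.0826), and the members that fell were Vldlr, Slc7a5, Atf5 and Pycr1, by 0.16 to 0.28 on the log2 scale.

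Antioxidant genes moved further. Of 41 tested NRF2 targets, antioxidant enzymes and metallothioneins out of 46 listed, 28 rose and 5 fell, with a median of 0.49, and 15 rose over 2-fold. Slc7a11, which imports cystine for glutathione synthesis and also belongs to the ATF4 programme, was 45.0, 49.6, 55.3 and 47.9 CPM in BSA and 722, 747, 896 and 695 CPM with both agents (log2 fold change 3.95, SE 0.09, adjusted p = 2.54e-13). Sulfiredoxin (Srxn1) was 149, 155, 167 and 157 CPM in BSA and 849, 926, 896 and 847 CPM with both agents (log2 fold change 2.49, SE 0.05, adjusted p = 2.17e-19). The groups were far apart for both genes, and Slc7a11 was highest in replicate 15. Both subunits of the enzyme that starts glutathione synthesis rose, Gclm from 90.7 ± 4.58 to 387 ± 7.95 CPM (SD, n = 4) and Gclc by 1.5 (SE 0.05) on the log2 scale. Hmox1, which breaks down haem, rose from 443 ± 26.2 to 1618 ± 90.3 CPM, and thioredoxin reductase Txnrd1 from 225 ± 6.75 to 800 ± 26.4 CPM. The mitochondrial superoxide dismutase Sod2 was 30.5, 28.8, 29.9 and 31.2 CPM in BSA and 127, 126, 123 and 121 CPM with both agents. The metalloreductase Steap4 rose from 0.554 ± 0.156 to 83.4 ± 14.2 CPM. The members that fell were the oxidase Nox4, by 0.71 on the log2 scale, the thioredoxin inhibitor Txnip, by 0.46, and the glutathione peroxidases Gpx3, Gpx1 and Gpx8, by 0.40, 0.38 and 0.28. The antioxidant element searched as TGACNNNGC on both strands was present in 6 of 41 promoters of this list (14.6%) and in 1643 of all 15727 (10.4%).

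Adenosine handling was a question of the study, since CD73 makes adenosine outside the cell. Nt5e, the gene of CD73 (chromosome 9, 88209089 to 88254146, plus strand), was 22.8, 23.6, 24.3 and 22.7 CPM in BSA and 9.73, 9.82, 11.3 and 8.63 CPM with both agents. Every palmitate+IL-1β library lay below every BSA library, and the log2 fold change was -1.24 (SE 0.08, adjusted p = 1.23e-11). Entpd1, whose product CD39 supplies CD73 with AMP, was low and had no call at 1.35 ± 0.318 against 1.17 ± 0.0378 CPM (SD, n = 4, adjusted p = 0.48). Adenosine kinase Adk fell from 33.8 ± 2.04 to 25.5 ± 0.509 CPM (adjusted p = 5e-06), and the deaminase Ada fell by 0.26 on the log2 scale (adjusted p = 0.0384) with overlapping libraries. The receptor Adora2b rose from 0.691 ± 0.22 to 1.13 ± 0.116 CPM (adjusted p = 0.0272), and Adora2a had at most 0.154 CPM in any library and was not tested. The calls of Ada and Adora2b were lost with DESeq2 (adjusted p = 0.0801 and 0.0619) and in several fits that leave out 1 library. Ampd3, which turns AMP into IMP inside the cell, was 35.9, 37.4, 40.5 and 39.9 CPM in BSA and 243, 249, 258 and 257 CPM with both agents (log2 fold change 2.71, SE 0.05, adjusted p = 3.64e-20). The UDP-sugar receptor P2ry14 fell from 7.00 ± 0.447 to 1.58 ± 0.252 CPM, and Nampt, which salvages NAD, rose by 0.87 (SE 0.05) on the log2 scale. Over 34 tested genes of the list, 14 rose and 8 fell, with a median of 0.09.

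Respiratory chain genes moved little. Of 78 tested nuclear-encoded subunits, 2 rose, 22 fell and 54 missed the threshold, with a median of -0.07. The largest fall was that of Ndufb7, by 0.45 on the log2 scale, and no member changed over 2-fold. Sdhb fell from 31.5 ± 0.857 to 27.4 ± 2.25 CPM (SD, n = 4, adjusted p = 0.0101), with overlapping libraries, and Uqcrc2 had no call at 60.9 ± 3.44 against 58.1 ± 0.148 CPM (adjusted p = 0.279). The subunits Ndufa8, Cox6a1 and Sdhc fell by 0.24, 0.37 and 0.22, while Ndufb11, with 30.1% of its transcript shared, fell by 0.36. The 2 that rose, Atp5l and Ndufb4, share 61.8% and 47.1% of their transcripts with other genes, so these values are uncertain. The split of this list followed the scaling, with 0 rises and 35 falls after upper-quartile scaling. Over 12 tested mitochondrially encoded protein genes the median log2 fold change was 0.18, with mt-Nd6 highest at 0.48. The 1 called was mt-Co1, at 6724, 6804, 6657 and 6899 CPM in BSA and 5351, 5948, 5392 and 5686 CPM with both agents. Its log2 fold change was -0.28 (SE 0.05, adjusted p = 6.13e-05), and its sequence is wholly shared with Gm13340. Among 38 tested glycolysis genes, 11 rose and 11 fell, against 23.8% higher and 22.5% lower over all genes tested. The median was 0.01, and the lowest log2 fold change was -2.5, for Pgam2. Hk2, Pfkfb3 and the glucose transporter Slc2a1, which govern glucose entry and the pace of glycolysis, rose by 1.35 (SE 0.06), 1.19 (SE 0.05) and 1.10 (SE 0.05), respectively, on the log2 scale.

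Matrix genes fell more often than they rose. Of 48 tested matrix glycoproteins, proteoglycans and crosslinking enzymes, 9 rose and 29 fell, with a median of -0.20. Omd, osteomodulin, was 18.0, 18.8, 21.6 and 20.7 CPM in BSA and 4.68, 5.21, 3.04 and 4.93 CPM with both agents (log2 fold change -2.15, SE 0.12, adjusted p = 2.06e-10). The hyaluronan synthase Has2 fell from 16.3 ± 0.841 to 6.69 ± 0.335 CPM (SD, n = 4), Thbs2 from a mean of 63.6 to a mean of 37.4 CPM, and the procollagen processing enhancer Pcolce from 220 ± 6.62 to 144 ± 7.18 CPM. Among the most abundant transcripts, Postn (periostin) fell from 12684 ± 177 to 10052 ± 768 CPM and Thbs1 from 7489 ± 436 to 5103 ± 232 CPM. Fibronectin (Fn1) went the other way, at 14452, 14928, 17424 and 16384 CPM in BSA and 20615, 20469, 24473 and 19303 CPM with both agents (log2 fold change 0.43, SE 0.07, adjusted p = 2.5e-04). Fibrillin (Fbn1) rose from 1318 ± 78.8 to 2139 ± 322 CPM. In both genes the highest BSA value was that of replicate 3 and the highest palmitate+IL-1β value that of replicate 15. Collagen chains were split evenly, 9 up and 9 down among 34 tested, against 23.8% higher and 22.5% lower over all genes tested. Col1a1 had no call (adjusted p = 0.503) and Col1a2 fell by 0.22 on the log2 scale. Col5a3 and Col18a1 rose by 0.64 (SE 0.04) and 0.40 (SE 0.05), and Col11a1 and Col8a1 fell by 0.54 and 0.48. Col6a3 and Col12a1 were highest in replicate 15 like Fn1, at 4042 and 8216 CPM.

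Over all genes tested, the share of calls differed with transcript length. Of the fifth of tested genes with the shortest summed exons, 12.5% were higher and 14.3% lower, and of the fifth with the longest, 34.1% were higher and 22.1% lower. The median log2 fold change was -0.02 in the first and 0.05 in the second. The part of length in the values above was not tested.

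Proteases that cut matrix were mixed, with 9 rises and 14 falls among 31 tested (median -0.14). The collagenase Mmp13 was 17.3, 17.5, 16.7 and 17.8 CPM in BSA and 60.8, 57.1, 48.7 and 60.5 CPM with both agents. Mmp3 rose from 8.72 ± 0.814 to 43.3 ± 1.91 CPM (SD, n = 4), with 22.9% of its transcript shared. Adamts4 and Adamts14 rose by 1.35 (SE 0.06) and 1.68 (SE 0.07) on the log2 scale, whereas Adamts5 fell from 139 ± 7.67 to 70.9 ± 3.77 CPM. Of 40 myofibroblast and TGF-β response genes, 7 rose and 19 fell, with a median of -0.11. The ligand Tgfb3 fell from 175 ± 3.73 to 89.3 ± 2.49 CPM and the inhibitory Smad6 from 15.8 ± 1.12 to 6.88 ± 0.221 CPM, while the co-receptor Tgfbr3 rose by 1.52 (SE 0.05) on the log2 scale. The smooth muscle actin gene Acta2 had no call (adjusted p = 0.17).

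Developmental signalling fell on balance. Of 44 tested Wnt ligands, receptors and antagonists, 5 rose and 26 fell, with a median of -0.42. The receptor Fzd7 was 137, 137, 146 and 139 CPM in BSA and 73.9, 66.4, 72 and 71 CPM with both agents (log2 fold change -0.98, SE 0.05, adjusted p = 2.22e-13). Fzd2 and Fzd8 fell from 61.4 ± 0.648 to 30.4 ± 2.07 CPM and from 42.0 ± 0.772 to 17.9 ± 2.04 CPM (SD, n = 4 each), and the R-spondin receptor Lgr4 from 58.9 ± 1.61 to 24.7 ± 2.93 CPM. The members that rose were Lef1, Rspo2, Ror1, Fzd3 and Axin1, by 0.14 to 0.82 on the log2 scale. Transcription factors of the craniofacial mesenchyme, which pattern the jaws, had the lowest median of all lists, -0.53, with 7 rises and 29 falls among 46 tested. Six2 fell from 80.8 ± 3.02 to 43.4 ± 1.33 CPM, Lhx8 from 78.6 ± 3.64 to 43.2 ± 2.47 CPM and Prrx1 by 0.31 on the log2 scale. Msx2 and Sox5 rose, from 3.75 ± 0.645 to 12.2 ± 0.319 CPM and from 3.67 ± 0.272 to 15.1 ± 0.235 CPM.

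Growth factors and imprinted growth genes gave 14 rises and 25 falls among 49 tested (median -0.20). Mest, an imprinted gene of growing mesenchyme, was among the largest falls of genes with an average log2 CPM of at least 1, with 38.7, 39, 37.8 and 35.6 CPM in BSA and 8.11, 7.44, 5.01 and 5.11 CPM with both agents (log2 fold change -2.55, SE 0.13, adjusted p = 1.19e-08). Vegfd, a lymphatic growth factor, fell from 103 ± 2.21 to 41.0 ± 2.96 CPM (SD, n = 4), and Ndnf from 8.71 ± 1.03 to 1.99 ± 0.286 CPM. Fgf7, which acts on epithelium, was 54.2, 53.0, 49.9 and 57.5 CPM in BSA and 184, 179, 177 and 197 CPM with both agents. Ereg, an EGF receptor ligand, rose by 2.10 (SE 0.08) on the log2 scale.

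Among genes with an average log2 CPM of at least 1, other large falls came from genes in no list. Crabp2, which carries retinoic acid to its nuclear receptor, fell from 39.7 ± 1.76 to 9.01 ± 1.62 CPM (SD, n = 4), and Adh1, which oxidises retinol and other alcohols, from 3.54 ± 0.548 to 0.832 ± 0.288 CPM. The Notch target Heyl fell by 2.26, the phosphodiesterase Pde8b by 2.16, the endocytic adaptor Reps2 by 2.56 and the glycosyltransferase Gcnt1 by 2.7 on the log2 scale. The rule that chose these 6 genes asked for groups that do not overlap, so their lack of overlap adds no support.

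Of 68 tested proliferation genes, 10 rose, 24 fell and 34 missed the threshold (median -0.11), against 23.8% higher and 22.5% lower over all genes tested. Mki67 and Top2a, markers of dividing cells, had no call (adjusted p = 0.0795 and 0.63). Cdkn1b fell from 64.6 ± 1.45 to 37.5 ± 0.962 CPM, whereas Cdkn2b, Mdm2 and Trp53 rose by 0.93, 0.61 and 0.68 on the log2 scale (SE 0.05, 0.04 and 0.05). Among 31 immediate early genes 18 rose and 9 fell (median 0.22), and Nr4a1 was lowest at a log2 fold change of -1.22. Fosl1 rose from 1.66 ± 0.242 to 8.62 ± 0.779 CPM, Jun from 74.8 ± 4.00 to 126 ± 1.48 CPM, Maff by 1.40 (SE 0.07) and Gadd45a by 1.24 (SE 0.07) on the log2 scale. In the circadian clock, 7 rose and 6 fell among 20 tested, against the same 23.8% and 22.5%. Bmal1, listed as Arntl in the table, rose from 12.0 ± 0.534 to 23.5 ± 2.01 CPM and the output gene Dbp fell from 54.9 ± 4.26 to 30.5 ± 3.11 CPM. Among 49 lysosome and autophagy genes 16 rose and 15 fell (median -0.01), against 23.8% higher and 22.5% lower over all genes tested. Atp6v0d2 was lowest of these at a log2 fold change of -1.02. The autophagy receptor Sqstm1 was 1038, 1046, 991 and 968 CPM in BSA and 2944, 2936, 3293 and 3124 CPM with both agents, and Optn, Mitf and Gabarapl1 rose by 0.58, 0.93 and 0.35 on the log2 scale.

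**Figure D3:**
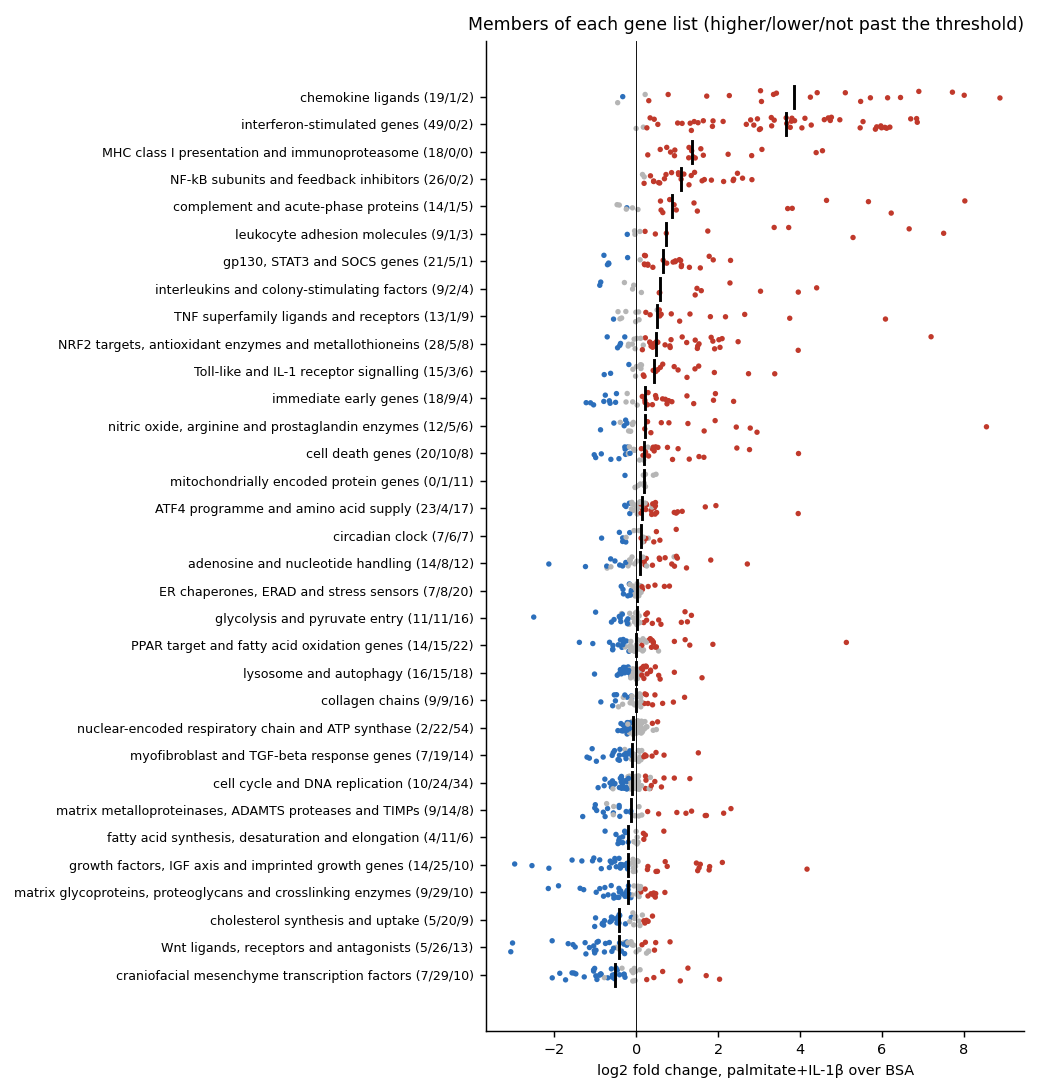
Each point is a tested member of a gene list at its log2 fold change, palmitate+IL-1β over BSA, coloured red where called higher, blue where called lower and grey otherwise; the black bar is the list's median and the numbers give members higher, lower and not past the threshold. Medians run from 3.84 for chemokine ligands to -0.53 for craniofacial transcription factors.

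To see which of these differences went beyond either agent alone, palmitate+IL-1β was compared with the 2 single-agent groups in a fit of all 16 libraries, which tested 16306 genes. These comparisons reuse the palmitate+IL-1β libraries, and levels below are scaled over all 16 libraries, so they differ slightly from those above. Against the libraries labelled palmitate, 1599 genes differed (9.81%), 931 of them higher (5.71%) and 668 lower (4.1%). The balance depended on the filter and the libraries fitted, with 756 higher and 806 lower without a filter on low counts, and 918 higher and 877 lower in a fit of only the 8 libraries compared. Against the libraries labelled IL-1β, 5712 genes differed (35%), 3082 higher (18.9%) and 2630 lower (16.1%). The single-agent labels carry a doubt. Angptl4 and Cpt1a, targets of fatty acids, were at 100 ± 3.40 and 216 ± 8.05 CPM in the libraries labelled IL-1β and at 20.7 ± 2.67 and 82.3 ± 4.02 CPM in those labelled palmitate (SD, n = 4 each). Cxcl5, a target of IL-1β, was at 29.4 ± 2.34 CPM in the libraries labelled IL-1β and at 582 ± 13.1 CPM in those labelled palmitate. Whether these labels were exchanged was not tested. The comparison with BSA does not use them, and a gene that lies beyond both single-agent groups does so whichever label is right.

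**Figure D4:**
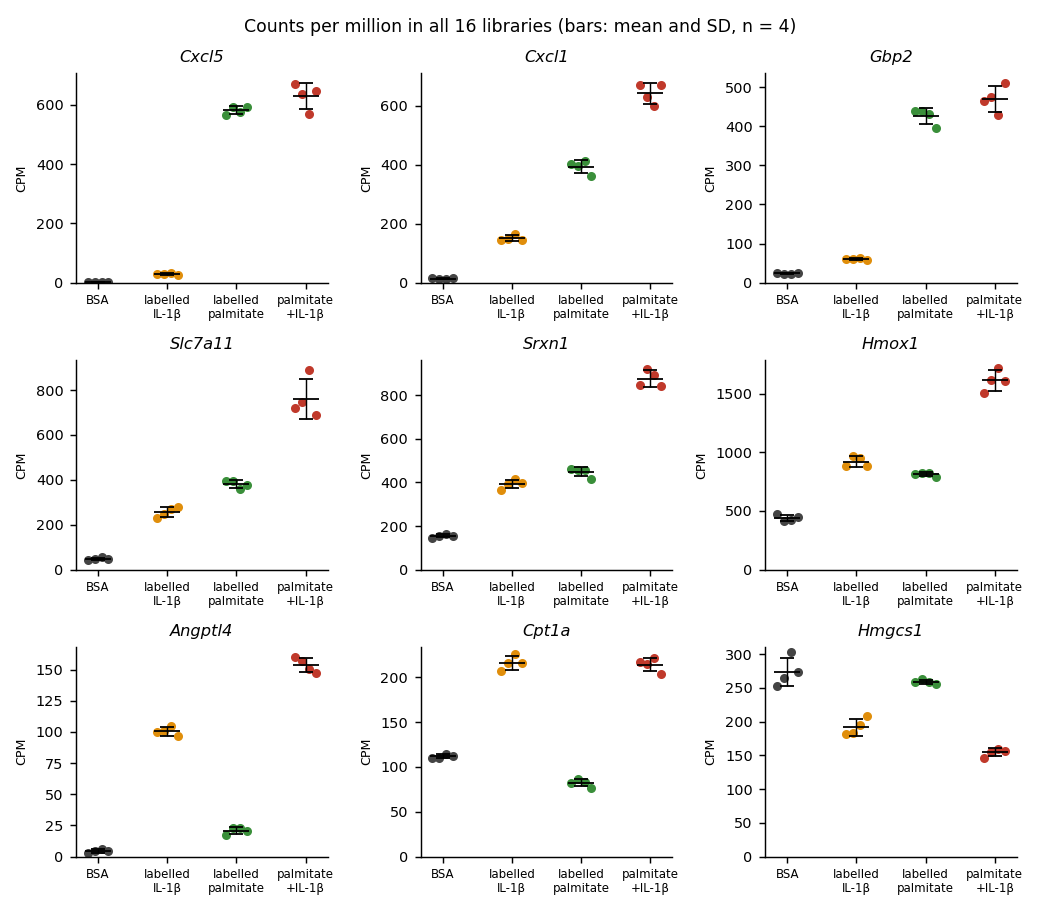
Each panel shows one gene in CPM (vertical axis, from 0) in all 16 libraries, 4 for each group as labelled, with bars for the mean and SD. Slc7a11, Srxn1 and Hmox1 are highest with both agents and intermediate in both single-agent groups, whereas Cxcl5 and Gbp2 with both agents lie near the libraries labelled palmitate, and Cpt1a near those labelled IL-1β.

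In the palmitate+IL-1β libraries, 564 genes (3.46%) were above BSA and above both single-agent groups, each at an adjusted p under 0.05, and 379 (2.32%) were below all 3. Slc7a11 led the first set among genes with a mean of at least 10 CPM. Its mean was 49.0 ± 4.36 CPM in BSA, 258 ± 22.4 CPM in the libraries labelled IL-1β, 382 ± 17.8 CPM in those labelled palmitate and 762 ± 89.0 CPM with both agents (SD, n = 4 each). The log2 fold change of both agents was 1.00 (SE 0.08, adjusted p = 1.4e-07) over the libraries labelled palmitate and 1.56 (SE 0.08, adjusted p = 4.56e-11) over those labelled IL-1β. Srxn1 was at 155 ± 7.56, 394 ± 19.5, 449 ± 21.2 and 876 ± 38.4 CPM in the same order, and Hmox1 at 438 ± 25.8, 921 ± 44.3, 812 ± 17.4 and 1611 ± 88.1 CPM. The proto-oncogene Myc and the kinase Plk2 were in the same set, with gains over the nearest single-agent group of 0.77 and 0.73 on the log2 scale. Of the NRF2 and antioxidant list, 16 of 42 tested members were above all 3 groups and none below. They included Gclm, Gclc, Txnrd1, Prdx6 and the transcription factor Nfe2l2 itself. Of the NF-kB list 12 of 28 were above all 3, among them Nfkbia, Nfkbiz and Tnfaip3, by 0.22 to 0.26 on the log2 scale over the libraries labelled palmitate.

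Of 22 chemokines 2 were above all 3 groups, Cxcl1 and Cxcl2, and of 52 interferon-stimulated genes 3 were, against 3.46% of all genes. Cxcl1 was at 641 ± 34.9 CPM with both agents and at 393 ± 21.4 CPM in the libraries labelled palmitate (SD, n = 4, log2 fold change 0.71, SE 0.05, adjusted p = 1.19e-11). Cxcl2 was at 13.6 ± 2.21 CPM with both agents and near 5 CPM in each single-agent group, at 5.32 ± 0.264 CPM in the libraries labelled IL-1β and 5.23 ± 0.962 CPM in those labelled palmitate. Cxcl5 and Gbp2 did not pass the threshold against the libraries labelled palmitate (adjusted p = 0.152 and 0.0539), and Nt5e was at 9.83 ± 1.09 CPM with both agents and 10.3 ± 0.591 CPM in those libraries (adjusted p = 0.717), against 18.3 ± 0.959 CPM in the libraries labelled IL-1β. The cyclooxygenase Ptgs2 was at 121 ± 10.1, 257 ± 12.4, 191 ± 1.34 and 383 ± 17 CPM in BSA, labelled IL-1β, labelled palmitate and both. Of the PPAR list 5 of 52 were above all 3 groups, with Angptl4, Pdk4 and Ppard among them.

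On the lower side, 8 of 21 fatty acid synthesis genes were below BSA and both single-agent groups, and so were 7 of 35 cholesterol genes and 9 of 68 cell cycle genes, against 2.32% of all genes. Elovl6 was at 56.3 ± 6.37 CPM in BSA, 41.8 ± 2.33 CPM in the libraries labelled IL-1β, 51.7 ± 3.72 CPM in those labelled palmitate and 33.4 ± 0.987 CPM with both agents (SD, n = 4 each). Hmgcs1 was at 274 ± 21.3, 192 ± 12.6, 259 ± 2.95 and 155 ± 5.75 CPM in the same order. Idi1, in contrast, was at 17.4 ± 2.2 CPM in the libraries labelled IL-1β and 16.9 ± 0.385 CPM with both agents (adjusted p = 0.665). The myofibroblast and TGF-β list had 9 of 40 members below all 3 groups, with Smad6 at 15.7 ± 1.09, 12.4 ± 1.05, 11.0 ± 0.524 and 6.85 ± 0.21 CPM, and the Wnt list had 7 of 46. Among genes with a mean of at least 10 CPM over the 16 libraries, the largest such fall belonged to Card10, a scaffold that feeds NF-kB, which was at 19.5 ± 1.10 CPM in BSA, 10.7 ± 0.386 and 12.0 ± 0.458 CPM in the libraries labelled IL-1β and palmitate, and 4.85 ± 0.25 CPM with both agents. The Notch target Hes1 was at 22.1 ± 2.22, 15.3 ± 2.08, 10.9 ± 0.362 and 7.07 ± 1.10 CPM in the same order.

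**Figure D5:**
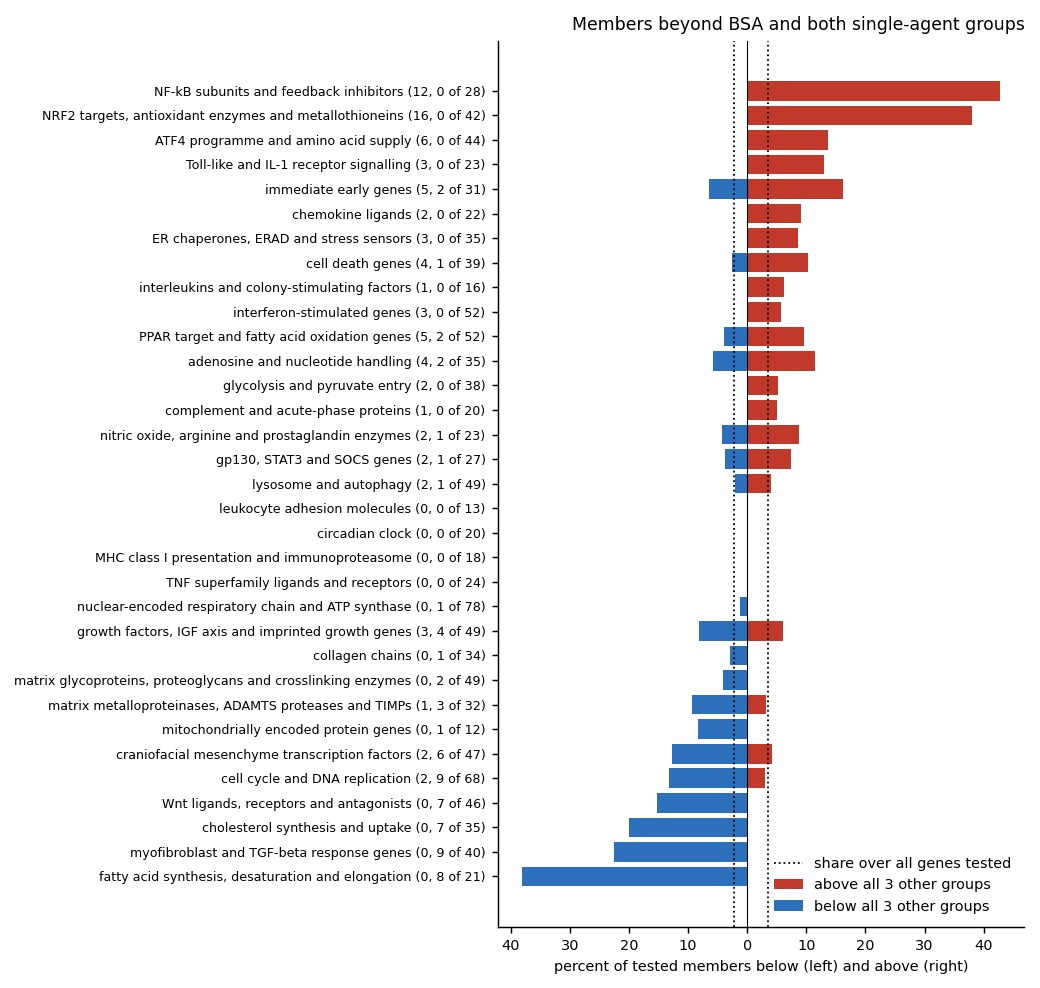
Bars give, for each gene list, the percent of tested members above (right, red) and below (left, blue) BSA and both single-agent groups at once; dotted lines mark the shares over all genes, 3.46% and 2.32%, and the numbers after each name are members above, members below and members tested. The NF-kB and antioxidant lists reach furthest to the right and fatty acid synthesis furthest to the left.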

How the data were processed

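RNA of 16 libraries of primary murine gingival fibroblasts was sequenced in bulk, and 8 libraries were compared here. Per the labels and the methods of the study, reads were trimmed with Trimmomatic 0.39, aligned to GRCm39 with STAR 2.7.10a and counted per GENCODE vM33 gene with HTSeq 2.0.9. The authors deposited raw gene counts, not normalized, in 1 table. A stranded kit for total RNA is given in the labels but oligo(dT) priming in the methods, and the strand setting of the counting is not given in the sources used here. Rows that name no gene, which held 18.28% to 21.42% of the counts of the 8 libraries, were left out.

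Counts were tested in R 4.3.3 with edgeR 4.0.16 (TMM scaling, filterByExpr with a minimum count of 10, robust quasi-likelihood test, Benjamini-Hochberg adjustment, adjusted p under 0.05). CPM values use TMM-scaled library sizes. Contrasts with the single-agent groups came from a fit of all 16 libraries. DESeq2 1.42.0 and other scalings, filters and sample sets were alternatives, and the code was tested on simulated data. Intervals and floors cover counting error only. Shared sequence is the share of a gene's canonical transcript found in other genes at 95% identity or more over at least 100 bases. Promoter windows are the 250 bases before the start of each gene's canonical transcript in GENCODE vM39 on GRCm39, which may lie inside the annotated gene.

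Genes were named by rule. The rule took, among called genes with an average log2 CPM of at least 1 and groups that do not overlap, the 10 largest rises and falls. It added the 10 smallest p-values, the 10 largest gains and losses in CPM, the 4 members of each list with the smallest p, and the genes of a heatmap of the study. From this set the text describes a selection. Angptl4, Pparg, Plin2, Ifit1, Sele, B2m, Gclc, Ndufb7, Hspa5, B3galt2, Adamts5, and genes named for lying beyond both single-agent groups, were chosen after their values were seen, as were members that missed the threshold or went against their list. Lists and members were chosen with earlier results of these data known. A few genes are not reported here.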

Additional observations from a re-analysis of the deposited data

Results flagged for a closer look

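A library was singled out where its value for a named gene lay far from the other 3 of its group by Dixon's test at the 95% level. This held for 26 of 471 groups of 4 values checked, and chance alone singles out about 1 in 20. Each value is given with the range of the other 3 libraries of its group.

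In BSA replicate 1, this held for Jam2 at 11.7 CPM against 15.1 to 15.4 CPM and Rspo2 at 170 CPM against 184 to 186 CPM. In BSA replicate 2, this held for Txnrd1 at 215 CPM against 228 to 230 CPM, Ndufb7 at 7.96 CPM against 5.65 to 5.92 CPM and Sox5 at 4.08 CPM against 3.5 to 3.59 CPM. In BSA replicate 3, this held for Cx3cl1 at 35.1 CPM against 38 to 38.1 CPM, Irf3 at 14.1 CPM against 17.8 to 18.3 CPM, Idi1 at 32.1 CPM against 28.4 to 28.9 CPM, Abca1 at 179 CPM against 159 to 162 CPM, Derl1 at 113 CPM against 103 to 104 CPM, Ndufb11 at 25.7 CPM against 21.5 to 21.8 CPM and Gadd45a at 35.8 CPM against 42.8 to 43.7 CPM. In BSA replicate 4, it was Ern1 at 21.9 CPM against 25.8 to 26.3 CPM. In palmitate+IL-1β replicate 13, this held for mt-Rnr2 at 93500 CPM against 99300 to 100000 CPM, Ggps1 at 85.1 CPM against 77.3 to 78.1 CPM and Txnrd1 at 761 CPM against 810 to 817 CPM. In palmitate+IL-1β replicate 14, it was Gclm at 399 CPM against 383 to 384 CPM. In palmitate+IL-1β replicate 15, this held for C3 at 436 CPM against 460 to 465 CPM, Ppard at 81 CPM against 73.8 to 74.8 CPM, Hk2 at 71.7 CPM against 63.9 to 64.4 CPM and Tgfbr3 at 107 CPM against 98.7 to 99.8 CPM. In palmitate+IL-1β replicate 16, this held for Cxcl9 at 13 CPM against 8.77 to 9 CPM, Vcam1 at 562 CPM against 598 to 602 CPM, Me1 at 189 CPM against 201 to 203 CPM, Hsd17b12 at 58.4 CPM against 64 to 64.5 CPM and Derl1 at 72.6 CPM against 84.1 to 85.9 CPM.

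BSA replicate 3 had 7 of these values, palmitate+IL-1β replicate 16 had 5 and palmitate+IL-1β replicate 15 had 4. Their part in the comparison was not tested beyond leaving each library out.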

How the results depend on the processing

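Leaving out each library in turn gave 6707 to 7014 changed genes, 3534 to 3739 higher, 3103 to 3394 lower and 1178 to 1264 over 2-fold. The number over 2-fold was 746 when at least 10 counts were asked of every library, which tests fewer genes, and 574 in a test against a 2-fold change itself (glmTreat). DESeq2 called 6830 genes, of which 6539 were shared with edgeR. Upper-quartile scaling called 2905 higher and 4721 lower and moved the median log2 fold change of all genes to -0.08. Against the libraries labelled palmitate, leaving out 1 library gave 1161 to 1492 genes, and against those labelled IL-1β 5021 to 5413. Of 3452 pairs of a named gene and an alternative, 3359 kept direction and side of the threshold, 83 lost the call, 10 gained one and 0 reversed. The 20 genes that lost it at least once were Ada, Adora2b, Atf4, Atp5l, Axin1, Col12a1, Ctf1, Elovl7, Fzd3, Gpx3, Hsd17b12, Hspa5, Insig1, Irak2, Jam2, Ndufb4, Npc1, Pycr1, Srebf1 and Tlr6. A single library decided the call of Ctf1 (adjusted p = 0.0661 without BSA replicate 2) and Gpx3 (adjusted p = 0.0548 without palmitate+IL-1β replicate 15). Eif2ak3 gained a call without palmitate+IL-1β replicate 16 (adjusted p = 0.0256) and in the fit of all 16 libraries (adjusted p = 0.0246), Otulin in that fit, and Mki67 in that fit and without palmitate+IL-1β replicate 13 or 15. Acta2, Col1a1, Eif2a and Uqcrc2 gained one, as falls, with upper-quartile scaling. Of 990 counts of list members, 52 moved by over 1.5 times, in 19 list counts. Chemokines called higher were 11 with at least 10 counts in every library. With upper-quartile scaling the members higher were 1 for fatty acid synthesis, 3 for cholesterol, 3 for Wnt, 4 for ER chaperones and 10 for lysosome genes, and the members lower were 8 each for the ATF4, NRF2 and nitric oxide lists, 35 for the respiratory chain, and 2 each for complement, adhesion and the TNF superfamily. Leaving out 1 library gave 3 to 5 ER genes lower in 5 of the 8 fits, 2 fatty acid synthesis genes higher without BSA replicate 4 or palmitate+IL-1β replicate 14, 3 Wnt genes higher without BSA replicate 2 or 4, 1 Toll-like and IL-1 receptor gene lower without BSA replicate 1 or 4 or palmitate+IL-1β replicate 14, 1 interleukin lower without BSA replicate 2, and 1 mitochondrially encoded gene higher without BSA replicate 4 or palmitate+IL-1β replicate 14. The single falls of the complement and adhesion lists were lost in 6 and 7 of the 8 fits that leave out 1 library, and 2 TNF superfamily genes fell without BSA replicate 3 or palmitate+IL-1β replicate 15. The cause was not tested. No paired analysis was possible because the groups share no replicate numbers.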
